A study of Homo sapiens with 14 samples.

Results

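Expression of 10 genes was described: the Rag GTPases RRAGA, RRAGB, RRAGC and RRAGD, folliculin (FLCN) with its partners FNIP1 and FNIP2, and the transcription factors TFEB, TFE3 and MITF. They were taken by symbol from the probe-to-gene table of the array, in which each of the 10 had 1 row, and they are 10 of 18398 genes measured. RRAGD led to the choice of these genes because of its high signal in inhibitor-selected cells. Differences between selected and parental cells are therefore given as a description, with no p-value, and for RRAGD no p-value is given in any comparison.

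The cells were OVCAR-3, an established human ovarian carcinoma line, grown in RPMI medium with fetal calf serum. Parental cells had not been selected and were arrayed as 4 replicates. From them 5 sublines resistant to PHA-533533, a CDK2 inhibitor, had been derived separately. Their names are OVCAR3-533533-R1, OVCAR3-533533-R3, OVCAR3-533533-R5, OVCAR3-533533-R6 and OVCAR3-533533-R7, here R1, R3, R5, R6 and R7. Each subline was arrayed once at passage 5 while growing in 4 µM inhibitor (the selected group, 5 arrays) and once at passage 10 or later in 0 µM inhibitor (the stable group, 5 arrays). Inhibitor and passage thus changed together between selected and stable cells and cannot be told apart. Total RNA from subconfluent cultures was labelled with biotin and read on Affymetrix whole-transcript arrays. Values are log2 signal, so that a difference of 1 is a doubling, and the signal of 1 gene's probes cannot be set against that of another gene. The labels do not state whether the 4 parental replicates came from separate cultures, so the p-values measure the spread among these arrays, part of which may be technical.

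Rag GTPases sit on the surface of the lysosome as pairs, RRAGA or RRAGB with RRAGC or RRAGD, and when amino acids are plentiful they bring the kinase complex mTORC1 there. FLCN, bound to FNIP1 or FNIP2, is the GTPase-activating protein of RRAGC and RRAGD, and the Rag pairs it acts on present TFEB, TFE3 and MITF to mTORC1, whose phosphorylation keeps them in the cytoplasm. When that phosphorylation is lost, these MiT/TFE factors enter the nucleus and switch on genes of lysosome biogenesis and autophagy by binding E-box sequences. The genes of RRAGC, RRAGD, FLCN and its partners are themselves known targets of the factors. The arrays measure mRNA only, not the place or phosphorylation of any protein.

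The array medians lay between 7.54 and 7.68. Ovarian epithelial markers (13 of 13 measured, among them EPCAM, PAX8 and MUC16) had mean signals of 10.6 to 11.3 on the 14 arrays. Mean signals were 6.18 to 6.48 for markers of melanocytes (7 of 8 measured), 6.14 to 6.39 for leukocytes and macrophages (7 of 7) and 6.72 to 7.06 for fibroblasts (6 of 6). Within these lists CD14 of the leukocytes ranged from 7.55 to 8.11 and COL1A1 of the fibroblasts from 8.84 to 9.39, and the part of such genes in the results was not tested. The mean of 340 olfactory receptor genes, silent outside the nose and used here as a measure of array background, ranged from 6.06 to 6.71. It was lower in the selected than in the stable array of every subline, by 0.12, 0.13, 0.11, 0.03 and 0.38 (log2; R1, R3, R5, R6 and R7). This background therefore moved with the comparison of selected and stable cells, most of all in R7.

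Among the Rag GTPases, RRAGD and RRAGC had higher signal in all 5 selected arrays than in all 4 parental arrays, RRAGB was higher in most, and RRAGA was about level. RRAGD was 2.63-fold higher in selected than in parental cells on average, RRAGC 1.46-fold and RRAGB 1.45-fold. In the stable cells RRAGC and RRAGD were back near the parental mean, and RRAGB lay between. RRAGA and RRAGB are close paralogs that fill the same place in the pair, as do RRAGC and RRAGD. The high signal thus covered both genes of the second kind and 1 of the first.

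RRAGD signal was 7.87, 8.04, 7.79 and 7.72 in parental replicates 1 to 4. In selected R1, R3, R5, R6 and R7 it was 9.19, 8.53, 8.47, 10.06 and 9.98, and in the stable arrays of these sublines 8.33, 7.14, 7.13, 8.53 and 7.79. Every selected array was above every parental array, while the stable arrays fell on both sides of the parental range, R1 and R6 above it, R3 and R5 below it and R7 within it. The parental mean was 7.85 ± 0.14 (SD, n = 4), the selected mean 9.25 ± 0.76 (SD, n = 5) and the stable mean 7.78 ± 0.65 (SD, n = 5). RRAGD varied between sublines far more than among parental replicates in both states, and R3 and R5 were its lowest sublines in both. Within sublines the selected array exceeded the stable array by 0.86, 1.39, 1.34, 1.54 and 2.19 (R1, R3, R5, R6 and R7). The mean difference of 1.46 had a limma SE of 0.37 when the arrays were taken as unpaired and of 0.16 with subline as a block. These SEs draw on the variance of all genes and not on the RRAGD values alone. The 5 differences within sublines themselves had an SD of 0.48.

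RRAGC signal was 9.22, 9.42, 8.98 and 9.18 in parental replicates 1 to 4. In selected R1, R3, R5, R6 and R7 it was 9.73, 9.83, 9.51, 9.75 and 9.92, and in the stable arrays of the same sublines 9.38, 9.20, 9.13, 9.13 and 8.89. The selected arrays lay above all parental and all stable arrays, whereas stable and parental arrays overlapped. RRAGC rose by 0.60 (SE 0.099; 95% interval 0.38 to 0.82) in selected against stable cells (limma, adjusted p = 0.0155, n = 5 and 5). The rise was seen in all 5 sublines, from 0.35 in R1 to 1.03 in R7, the subline in which the olfactory receptor background also differed most. With that background as a covariate the difference was 0.52 (adjusted p = 0.0155), and with subline as a block besides it was 0.35 (limma, adjusted p = 0.669). The call was also lost, at 0.49 (adjusted p = 0.0993), when both R7 arrays were left out, but kept there with subline as a block (adjusted p = 0.0487), and it was lost without the selected R3 array (0.58, adjusted p = 0.0532). Over the 22 settings run its adjusted p ranged from 0.00398 to 0.669.

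RRAGB signal was 7.36, 7.56, 7.29 and 7.29 in parental replicates 1 to 4. It was 8.29, 8.08, 7.50, 7.84 and 7.85 in selected R1, R3, R5, R6 and R7, and 7.84, 7.46, 7.65, 7.41 and 7.51 in the stable arrays. Only selected R5 fell inside the parental range, and R5 was also the only subline whose selected array was below its stable array, by 0.15. The other sublines differed by 0.34 to 0.61. The mean difference of selected from stable cells was 0.34 (SE 0.14) and missed the threshold (limma, adjusted p = 0.253). RRAGA, the paralog of RRAGB, ranged from 8.55 to 8.89 in parental cells, from 8.74 to 8.92 in selected cells and from 8.66 to 8.87 in stable cells. The groups overlapped, selected cells exceeded parental cells by 0.06 on average (-0.01 without parental replicate 3), and the difference between selected and stable cells was 0.04 with a 95% interval of -0.10 to 0.18.

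**Figure D1:**
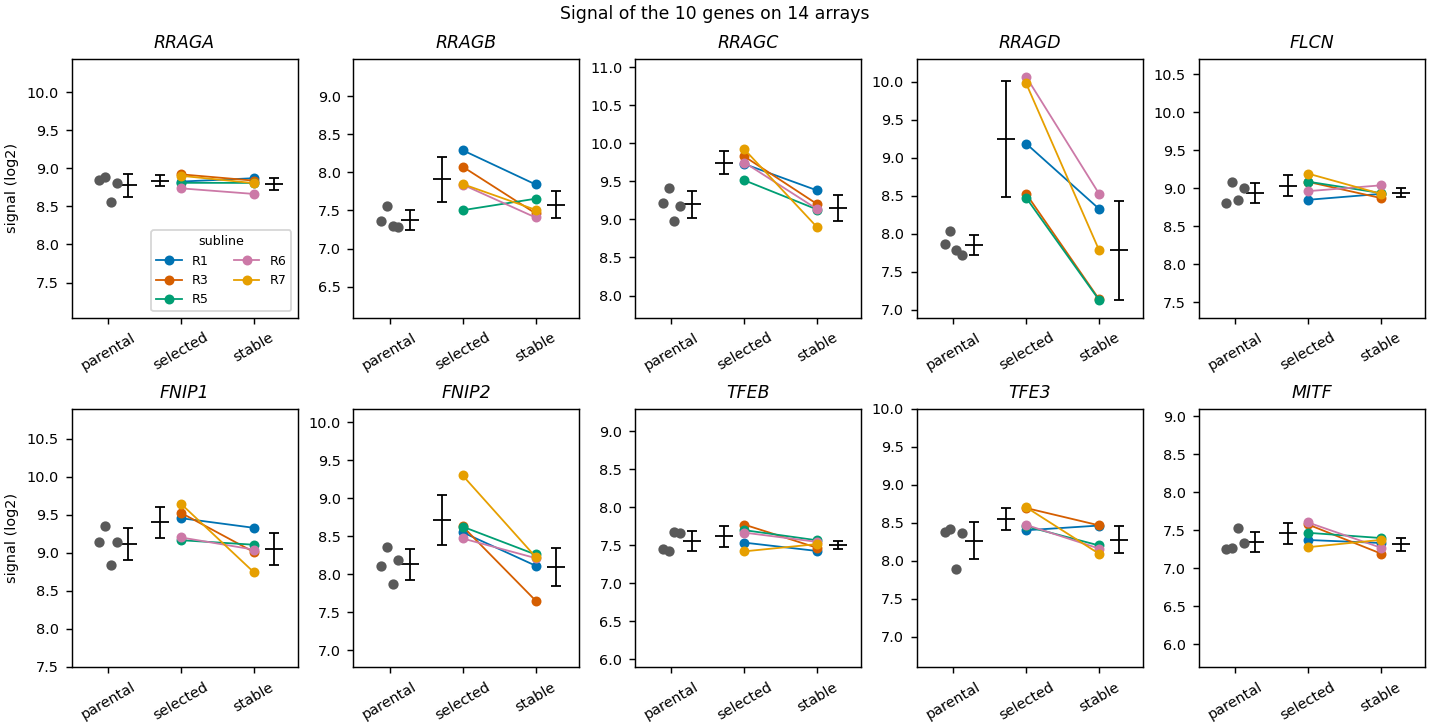
Signal (log2) of each of the 10 genes on the 14 arrays, in parental (grey), selected and stable cells, with a line joining the 2 arrays of a subline and a bar giving mean ± SD. Every vertical axis spans the same number of log2 units. RRAGD shows the steepest lines and the widest scatter between sublines, RRAGC and FNIP2 have selected arrays above all others, and RRAGA, FLCN, TFEB and MITF stay nearly level.

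Of the folliculin complex, FNIP2 was high in selected cells, FNIP1 was modestly higher and FLCN itself was nearly level. Selected cells exceeded parental cells by 0.59 (log2) for FNIP2, 0.28 for FNIP1 and 0.10 for FLCN. In stable cells all 3 were within 0.07 of the parental mean. FNIP1 and FNIP2 are alternative partners of FLCN, and each complex holds 1 of them.

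FNIP2 signal was 8.10, 8.36, 7.88 and 8.18 in parental replicates 1 to 4. In selected R1, R3, R5, R6 and R7 it was 8.55, 8.63, 8.63, 8.47 and 9.30, and in the stable arrays 8.11, 7.66, 8.26, 8.21 and 8.23. All selected arrays were above all others, with R7 standing apart from the other selected arrays and R3 from the other stable arrays. The difference between selected and stable cells was 0.62 (SE 0.16; 95% interval 0.27 to 0.98), which missed the threshold without pairing (limma, adjusted p = 0.0757). With subline as a block FNIP2 passed it (SE 0.13, adjusted p = 0.0337; 0.0337 to 0.762 over 22 settings). By subline the difference was 0.44, 0.97, 0.37, 0.26 and 1.07, in the same order, so that it was above 0 in each of them.

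FNIP1 signal was 9.15, 9.35, 8.83 and 9.14 in parental replicates 1 to 4. It was 9.45, 9.53, 9.16, 9.20 and 9.64 in selected R1, R3, R5, R6 and R7, and 9.33, 9.01, 9.11, 9.04 and 8.74 in the stable arrays. The selected and parental arrays overlapped, and so did the selected and stable arrays. FNIP1 was higher in the selected array of all 5 subline pairs, but by 0.06 to 0.16 in R1, R5 and R6 against 0.52 in R3 and 0.90 in R7. The mean difference of 0.35 (SE 0.12) did not pass the threshold (limma, adjusted p = 0.165), and it was -0.02 with subline as a block and the olfactory receptor background as a covariate. FLCN ranged from 8.80 to 9.08 in parental cells, from 8.85 to 9.19 in selected cells and from 8.87 to 9.04 in stable cells. Its difference between selected and stable cells was 0.10 (95% interval -0.07 to 0.26) and had either sign by subline, below 0 in R1 and R6.

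The start of 3 of these genes, RRAGB, RRAGC and FNIP1, holds the E-box core that MiT/TFE factors bind. RefSeq windows from 250 bases before to 50 after the transcription start (GRCh38.p14) were held for 8 of the 10 genes, RRAGA and RRAGD being the others. The letters CACGTG, which read the same on both strands, were found in the windows of 3 of the 8 genes (37.5%), against 8.77% of 27305 genes with a window and 10.9% of the 14227 measured here. All 3 genes also hold the longer TCACGTG on either strand, against 5.88% of measured genes with a window, and these matches overlap the CACGTG. RRAGB holds the full palindrome GTCACGTGAC of the CLEAR element, found in 0.647% of measured genes with a window. The letters of this palindrome were read from the RRAGB window itself, so its match there was fixed beforehand and the share is a description only. The variant TCATGTG was also searched on either strand. It was found in 1 of the 8 genes (12.5%), against 3.03% of measured genes with a window, and its place is not given here. The windows are shown from 250 bases before to 20 after the start, because RRAGB and RRAGC are among the genes high in selected cells and FNIP1 holds a pair of E-boxes. Capitals mark CACGTG.
RRAGB (chrX:55717499-55717768, + strand): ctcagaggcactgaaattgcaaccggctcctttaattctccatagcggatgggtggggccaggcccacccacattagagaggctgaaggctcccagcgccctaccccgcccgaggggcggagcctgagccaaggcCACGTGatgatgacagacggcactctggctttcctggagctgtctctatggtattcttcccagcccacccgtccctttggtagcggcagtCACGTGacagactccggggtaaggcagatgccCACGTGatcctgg
RRAGC (chr1:38859753-38860022, - strand): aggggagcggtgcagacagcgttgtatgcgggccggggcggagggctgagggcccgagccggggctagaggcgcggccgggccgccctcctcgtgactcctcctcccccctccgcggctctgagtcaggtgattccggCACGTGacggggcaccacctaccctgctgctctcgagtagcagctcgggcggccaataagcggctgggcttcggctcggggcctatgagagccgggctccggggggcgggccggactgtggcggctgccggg
FNIP1 (chr5:131796998-131797267, - strand): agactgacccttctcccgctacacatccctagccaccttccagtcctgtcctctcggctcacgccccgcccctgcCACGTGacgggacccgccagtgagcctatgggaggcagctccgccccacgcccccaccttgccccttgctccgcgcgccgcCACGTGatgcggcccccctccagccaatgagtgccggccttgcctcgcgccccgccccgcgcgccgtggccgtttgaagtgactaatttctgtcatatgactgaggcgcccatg
In RRAGB the CACGTG begins 115 and 25 bases before the start and again 8 bases after it, and the CLEAR palindrome begins 27 bases before the start. In RRAGC it begins 112 bases before the start, and in FNIP1 175 and 94 bases before. The windows of FLCN, FNIP2 (2 starts), TFEB (3 starts), TFE3 and MITF (3 starts) do not hold the letters CACGTG. FNIP2 lacks the letters in its windows, whereas FNIP1 and RRAGB hold them. In selected against stable cells all 3 missed the threshold without pairing (limma, adjusted p = 0.0757, 0.165 and 0.253). RRAGC, which holds the letters, passed (limma, adjusted p = 0.0155). With subline as a block FNIP2 passed too (limma, adjusted p = 0.0337), while FNIP1 and RRAGB did not. A link between the letters and the signal was not tested. A match describes the sequence and shows no binding.

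**Figure D2:**
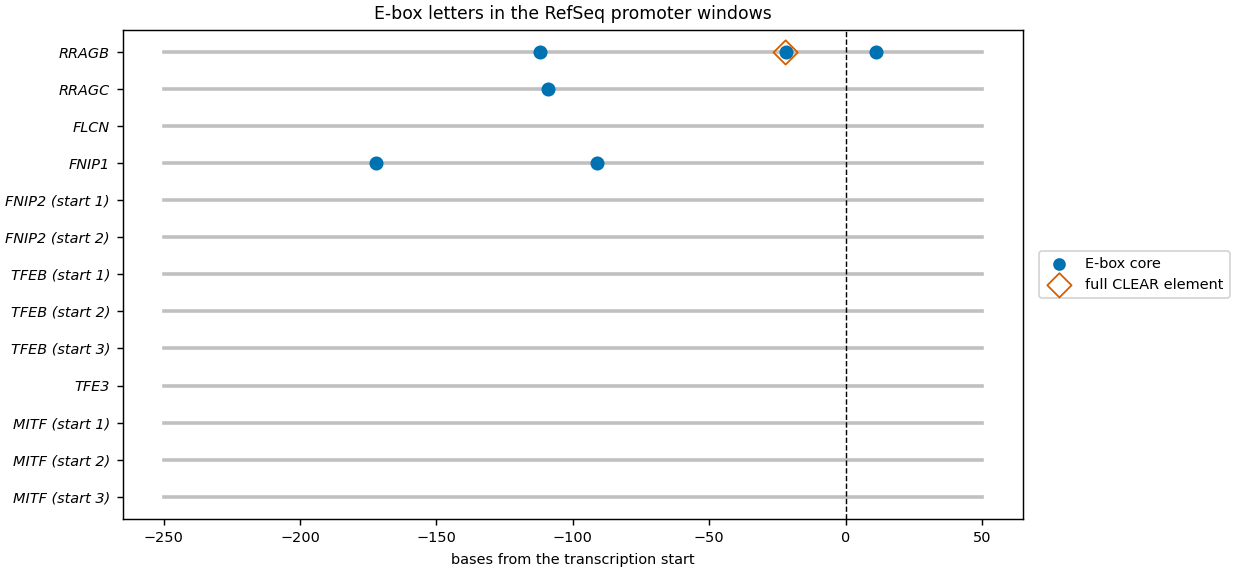
Position of the E-box core (filled circles) and of the full CLEAR element (open diamond) in the RefSeq promoter windows of the 8 genes that have one, in bases from the transcription start (dashed line), 1 line for each start. Circles mark the middle of a match. RRAGB has 3 matches, FNIP1 2 and RRAGC 1.

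The MiT/TFE factors themselves differed little in mRNA. TFE3 was 1.21-fold higher in selected than in parental cells, MITF 1.08-fold and TFEB 1.05-fold. None of the 3 passed the test in selected against stable cells (limma; TFE3 alone had an unadjusted p under 0.05), and in stable cells all were within 0.05 of the parental mean. TFEB and MITF were dim on these arrays, with mean signals under the 40th percentile of all genes.

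TFE3 signal was 8.38, 8.42, 7.90 and 8.37 in parental replicates 1 to 4. In selected R1, R3, R5, R6 and R7 it was 8.40, 8.69, 8.45, 8.47 and 8.70, and in the stable arrays 8.46, 8.47, 8.20, 8.16 and 8.09. Selected arrays overlapped both other groups, and parental replicate 3 was the lowest of all arrays. That replicate also had the highest olfactory receptor background of the parental arrays (6.71) and the lowest parental signal for RRAGA, RRAGC, FNIP1 and FNIP2. Without it the difference of selected from parental cells was 0.16 for TFE3 (0.28 with it) and 0.17 for MITF (0.11 with it). The difference of selected from stable cells was 0.27 (SE 0.098; 95% interval 0.05 to 0.48) and missed the threshold (limma, adjusted p = 0.199), although it passed with array weights (0.35, adjusted p = 0.0268; 0.0268 to 0.916 over 22 settings). By subline, R1 to R7, it was -0.06, 0.23, 0.25, 0.31 and 0.61.

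TFEB ranged from 7.42 to 7.67 in parental cells, from 7.42 to 7.77 in selected cells and from 7.42 to 7.56 in stable cells. MITF, the lineage factor of melanocytes, ranged from 7.25 to 7.53, from 7.28 to 7.60 and from 7.19 to 7.40. The ranges overlapped throughout. Between selected and stable cells TFEB differed by 0.12 (95% interval -0.05 to 0.28; limma, adjusted p = 0.535) and MITF by 0.15 (-0.03 to 0.32; adjusted p = 0.429). Both were lower in the selected than in the stable array of R7, by 0.10 each, the subline in which RRAGC, RRAGD, FNIP1, FNIP2 and TFE3 had their largest positive differences.

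Counted together, all 10 genes had mean differences above 0 in selected against parental cells, with a median of 0.28, where the median over all 18398 genes was -0.01 and 45.9% of genes were above 0. In the fit over all genes (limma, adjusted p under 0.05) 6.92% of genes lay past the threshold, 5.03% as higher and 1.89% as lower, and no call is given for the 10 genes. All 5 selected arrays were above all 4 parental arrays for RRAGC, RRAGD and FNIP2, as for 6.81% of all genes, and below them for none, as for 2.96%. Because this contrast led to the choice of the genes, these counts are no test of them and nothing is read from them. In selected against stable cells, 1 of the 9 genes tested passed (RRAGC; 2.16% of all genes did), and 2 of the 9 with subline as a block (RRAGC and FNIP2; 4.92% of all genes). In that comparison, without the block, 5 of the 9 had an unadjusted p under 0.05 (limma), as did 2809 of the 18398 genes. The median of the 10 differences was 0.30, against 0.003 over all genes. RRAGC and FNIP2 were the 2 genes whose selected and stable arrays did not overlap, as for 2.83% of all genes. RRAGC, RRAGD, FNIP1 and FNIP2 were higher in the selected array of each of the 5 sublines, as were 11.8% of all genes. These comparisons share the selected arrays and are no independent support of each other.

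In stable against parental cells none of the 9 genes tested passed (limma, adjusted p from 0.857 to 0.999), where 0.00544% of all genes did. At an unadjusted p under 0.05 there were 0 of 9, beside 1120 of the 18398 genes. The differences ran from -0.07 for FNIP1 to 0.20 for RRAGB (95% interval -0.03 to 0.42), and that of RRAGD, not tested, was -0.07 (SE 0.27). For none of the 10 genes did the stable and parental arrays separate, where 0.826% of all genes were higher and 1.42% lower without overlap. In simulated data with this number of arrays 60% of genes changed by 0.5 and 96% of those changed by 1 were recovered, so small differences could be missed. The simulation had 50 changed genes of each size and noise drawn separately for each gene, without shifts shared by many genes of an array. Recovery in the real data may therefore be lower: ATP6V0D2, at -0.75, was not called (limma, adjusted p = 0.305). The stable and the selected comparisons with parental cells share the 4 parental arrays.

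**Figure D3:**
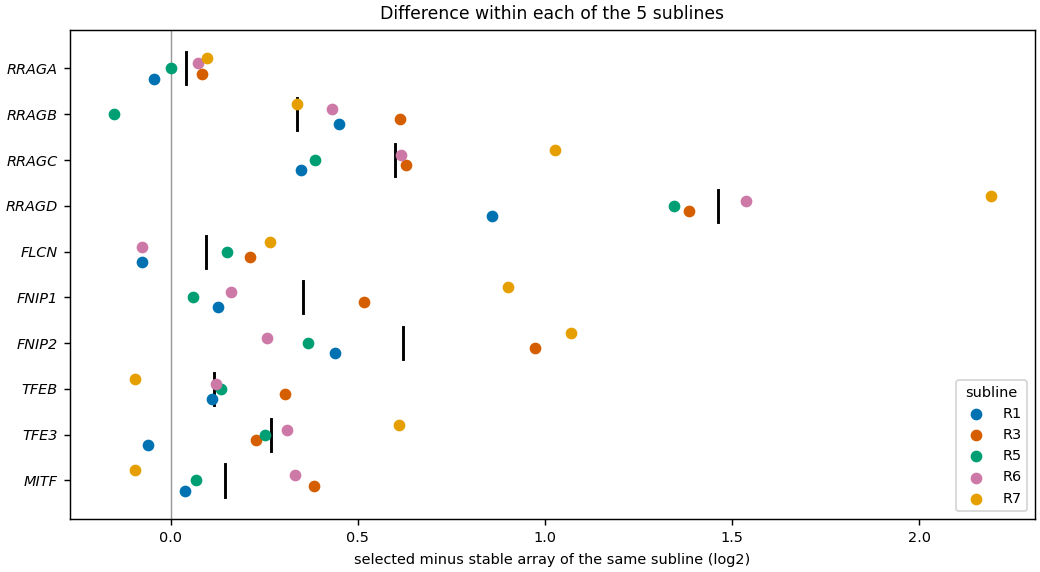
Selected minus stable signal (log2) of each gene in each of the 5 sublines (coloured points), with a bar at the mean. RRAGD, RRAGC, FNIP2 and FNIP1 have all points above 0, and R7 is farthest to the right for these 4 genes and TFE3 but to the left of 0 for TFEB and MITF.

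The sublines differed in how the 10 genes moved. In R3 all 10 were higher in the selected array, with a median of 0.45. In R7 there were 8, with a median of 0.47. R5 and R6 had 9 each (medians 0.14 and 0.28), and R1 had 7 (median 0.12). R1 had the smallest RRAGC and RRAGD differences, and its stable array had the highest RRAGC and RRAGB and the second highest RRAGD signal of the stable arrays.

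The 6 genes whose profile over the 14 arrays, each centred on its own mean, lay closest to that of RRAGD were NIPAL2, CYP2R1, PIEZO2, EHF, CD82 and B4GALT6, with mean absolute differences of 0.302 to 0.368 (log2). NIPAL2, the nearest at 0.302, had parental values of 7.59 to 7.86, selected values of 8.47 to 9.04 and stable values of 7.11 to 8.12. EHF, an epithelial transcription factor, had high selected R6 and R7 values (10.60 and 10.16) and low stable R3, R5 and R7 values (7.78, 7.32 and 7.53), where RRAGD was low in stable R3 and R5 only. CYP2R1 encodes a vitamin D hydroxylase, PIEZO2 a mechanically gated channel and CD82 a tetraspanin. RRAGC ranked 148 and FNIP2 149 of 18397 genes by this measure (0.491 each), RRAGB 716 and FNIP1 1144, and the median over all genes was 0.700.

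Upstream of the Rag pairs, few other genes of the pathway were called in selected against stable cells, and their differences lay in both directions. The Ragulator complex with SLC38A9, which anchors the Rags to the lysosome and senses arginine there, had 5 of 6 genes measured. Their median difference between selected and stable cells was 0.03, with 3 of the 5 above 0. SLC38A9 differed by -0.41 and LAMTOR4 by -0.18 (limma, adjusted p = 0.333 and 0.324). LAMTOR3, a Ragulator subunit, had 9.28, 9.30, 8.75 and 8.97 in parental, 9.99, 9.79, 9.49, 9.79 and 9.92 in selected and 9.65, 9.30, 9.25, 8.98 and 8.78 in stable cells. All selected arrays but R5 exceeded all others. Its difference was 0.61 (limma, adjusted p = 0.0626), and it passed with subline as a block (adjusted p = 0.0344; 0.0121 to 0.752 over 22 settings). None of the 5 passed without the block (limma) and LAMTOR3 alone with it, beside 2.16% and 4.92% of all genes. At an unadjusted p under 0.05 without the block there were 2 of 5, beside 2809 of the 18398 genes.

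Of 16 measured genes of GATOR, KICSTOR and the amino acid sensors, which set the state of the Rags, SESN1 was called higher in selected than in stable cells, and SESN3 joined it with subline as a block. That is 1 of 16 and 2 of 16, beside 2.16% and 4.92% of all genes. Without the block 6 of 16 had an unadjusted p under 0.05 (limma), as did 2809 of the 18398 genes. Sestrins bind GATOR2 and hold mTORC1 signalling down when leucine is scarce. SESN1 had 6.69 to 6.86 in parental, 7.46, 7.20, 7.08, 7.20 and 7.42 in selected R1, R3, R5, R6 and R7, and 6.75 to 6.90 in stable cells. It rose by 0.44 against stable cells (limma, adjusted p = 0.0228), with selected arrays above all others. SESN3 had 7.81, 8.28, 7.79 and 8.12 in parental and 9.12, 9.30, 8.49, 8.62 and 9.12 in selected cells. In stable cells it was 8.93 in R1 but 7.18 to 7.57 in the other 4 sublines, so that stable R1 alone reached the selected range. Its difference of 1.28 missed the threshold unpaired (limma, adjusted p = 0.0531) and passed with the block (adjusted p = 0.0224; 0.00274 to 0.697 over 22 settings). LARS1, a leucyl-tRNA synthetase, was lower by 0.33 in selected than in parental cells, with stable cells between.

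Among 11 measured genes of mTORC1, TSC and RHEB, 3 had an unadjusted p under 0.05 in selected against stable cells (limma). Over all 18398 genes 2809 did. The 1 called gene of the 11 was RPS6KB1, the S6 kinase that mTORC1 phosphorylates, beside 2.16% of all genes. It had 8.99 to 9.29 in parental, 9.67, 9.69, 9.34, 9.56 and 9.61 in selected and 9.00 to 9.33 in stable cells, and it rose by 0.43 in selected against stable cells (limma, adjusted p = 0.0334). A list of 18 measured genes covered those that set the place of MiT/TFE factors, and TFEC, a further factor of the family. In selected against stable cells 6 of the 18 had an unadjusted p under 0.05 (limma), beside 2809 of all genes. The 1 called gene of the 18 was PPP3CB, called lower, beside 2.16% of all genes called and 0.614% called lower. PPP3CB encodes a catalytic subunit of calcineurin, the phosphatase that removes phosphate from TFEB. Its signal was 8.70, 9.14, 8.56 and 8.86 in parental, 8.26, 8.18, 7.95, 8.13 and 8.20 in selected and 9.04, 9.40, 8.67, 8.59 and 8.66 in stable cells. It fell by 0.73 in selected against stable cells (limma, adjusted p = 0.0285), and no selected array reached the others. STUB1, a ubiquitin ligase acting on phosphorylated TFEB, was lower by 0.32 in selected than in parental cells and differed by -0.12 from stable cells (limma, adjusted p = 0.542).

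Downstream, 3 lists of lysosome genes had higher signal in selected than in stable cells, each with a median difference above 0.2. The lists group genes by function, and control of each gene by the factors was not tested. Of the V-ATPase genes 5 of 22 were called (median 0.24), of the lysosomal hydrolases and activators 8 of 42 (median 0.26) and of the lysosomal membrane proteins 2 of 20 (median 0.21), all higher, beside 1.54% of all genes called higher and 0.614% lower. With subline as a block there were 5, 11 and 4, beside 3.61% of all genes called higher and 1.31% lower. Of 12 other known MiT/TFE targets 1 was called in each fit, GPNMB (median 0.14). Against parental cells, given as a description, 18 of 22, 33 of 42, 17 of 20 and 10 of 12 genes of these 4 lists had differences above 0, with medians of 0.26, 0.24, 0.25 and 0.28, where 45.9% of all genes were above 0. The lists were drawn up with earlier results of these data known and are not independent evidence of a direction. Over all 8 lists 18 of 146 measured genes were called higher and 1 lower in selected against stable cells. In stable against parental cells limma called 0 of 146, and 6 had an unadjusted p under 0.05, as did 1120 of the 18398 genes.

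FUCA1, GM2A and CTSL had the smallest p-values of the hydrolases and activators. FUCA1, a lysosomal fucosidase, had parental values of 7.91 to 8.16, selected values of 8.57 to 9.06 and stable values of 7.86 to 8.29, and rose by 0.76 against stable cells (limma, adjusted p = 0.00900). GM2A, the activator of ganglioside breakdown, had 9.46 to 9.76, 10.17 to 10.39 and 9.43 to 9.79 and rose by 0.66 (adjusted p = 0.00900). CTSL, cathepsin L, had 7.87 to 7.95, 8.45 to 8.79 and 7.80 to 8.05 and rose by 0.65 (adjusted p = 0.00900). For these 3 genes the selected arrays lay above all others, in each subline. ATP6AP1, an accessory subunit of the proton pump, rose by 0.46 (adjusted p = 0.0116), LAMP2 by 0.40 (adjusted p = 0.0476) and the calcium channel MCOLN1 by 0.36 (adjusted p = 0.0307). GPNMB, a transmembrane glycoprotein and known target of the factors, rose by 1.33 (limma, adjusted p = 0.0462), from 0.27 in R1 to 2.85 in R3. Its stable R3 array (8.02) was below all parental arrays (8.98 to 9.55).

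ATP6V0D2, a V-ATPase subunit known from osteoclasts, had parental values of 6.91 to 7.07, selected values of 6.22 to 6.71 and stable values of 5.79 to 6.74, below every parental array in both resistant groups. It was dim, and the filter on dim genes removed it. Its resistant-cell values lay about where the olfactory receptor means did (6.06 to 6.71), so the size of the difference is uncertain, and in stable against parental cells it was not called (limma, adjusted p = 0.305; 0.00934 to 0.808 over 16 settings, called in 1, with array weights).

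The calls of list genes in selected against stable cells depended on which arrays entered. With both R7 arrays left out, limma called 0 genes in the whole table (1756 at an unadjusted p under 0.05), and 159 with subline as a block. Over the settings run, FUCA1 and GM2A were called in 20 of 22, CTSL and ATP6AP1 in 19, PPP3CB in 14, SESN1 in 13 of 21, RPS6KB1 in 12 of 22, LAMP2 in 9, and GPNMB and MCOLN1 in 8. Leaving out selected R3, selected R7, stable R5 or stable R7 alone ended the call of each of PPP3CB, SESN1, RPS6KB1, LAMP2, GPNMB and MCOLN1, and leaving out selected R1, R5 or R6 or stable R3 or R6 ended some of these calls (limma, adjusted p from 0.0506 to 0.130 over the single arrays that ended a call). Each of the genes counted here kept its direction in every setting.

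**Figure D4:**
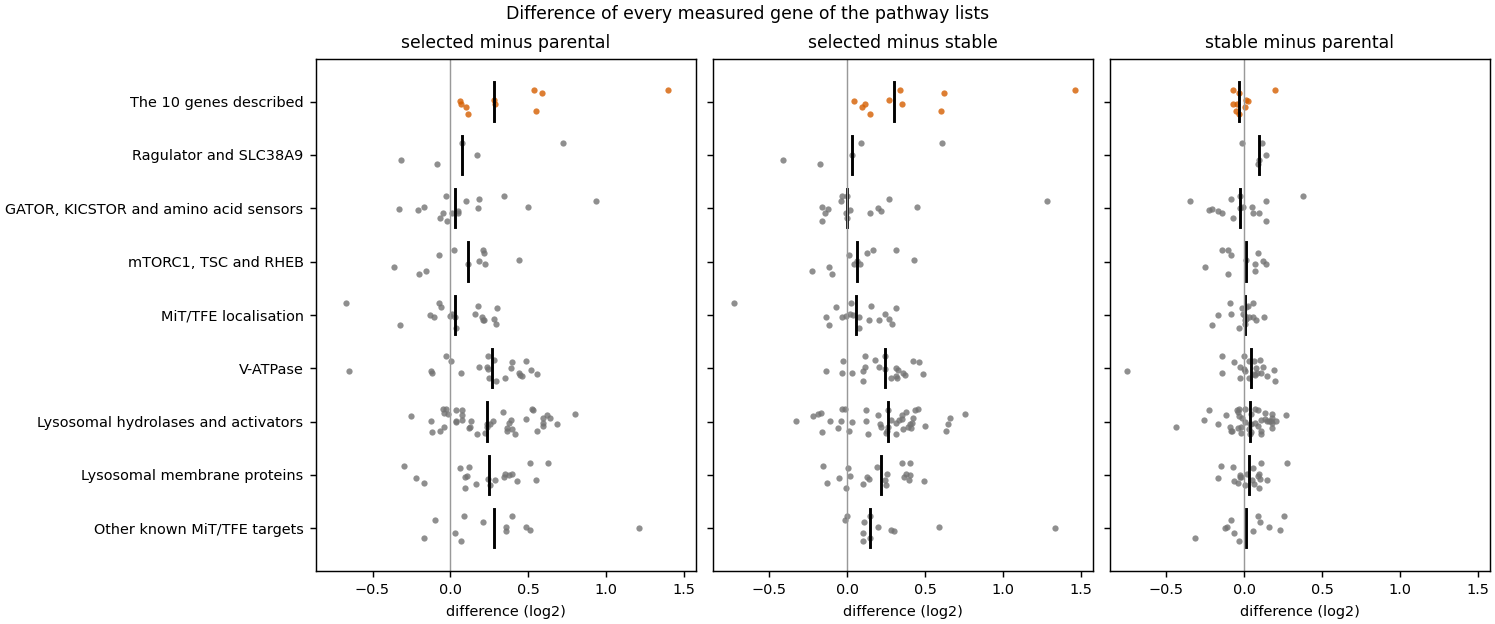
Difference (log2) of every measured gene (points) in the 10 genes described and in 8 pathway lists, for 3 comparisons, with a bar at the median of each list. The medians of the V-ATPase, hydrolase and membrane lists lie between 0.21 and 0.26 in both comparisons with selected cells and near 0 in stable minus parental, while the 4 upstream lists have medians of 0.11 or less in the comparisons with selected cells.

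Set array by array, RRAGD and the lysosome lists were both high in every selected array, but their order relative to the parental mean differed. Relative to the parental mean, the hydrolase list was highest in selected R3 (0.33), R7 (0.31) and R1 (0.28) and lower in R6 (0.18) and R5 (0.17). RRAGD, in contrast, was highest in R6 and R7 and low in R3. Selected R6 thus had the highest RRAGD signal of the 14 arrays and the second lowest hydrolase mean of the selected arrays. The V-ATPase list ran from 0.15 to 0.28 in selected and from -0.10 to 0.12 in stable cells, and the hydrolase list from 0.17 to 0.33 and from -0.11 to 0.12. The membrane list overlapped, with 0.12 to 0.29 in selected and -0.13 to 0.19 in stable cells. Within sublines the hydrolase mean was higher in the selected array by 0.15, 0.26, 0.07, 0.29 and 0.37 (R1, R3, R5, R6 and R7). RRAGD was higher there by 0.86, 1.39, 1.34, 1.54 and 2.19, in the same order of sublines. In these paired differences RRAGD and the hydrolase, V-ATPase and membrane lists were all lowest in R1 and R5 and rose through R3, R6 and R7. A link between RRAGD and the lists was not tested. R7 was the largest for the hydrolase, V-ATPase (0.36) and membrane (0.41) lists as for RRAGD, and R7 also had the largest drop in olfactory receptor background. With the background as a covariate and subline as a block, limma called 0 genes of the whole table between selected and stable cells (1309 at an unadjusted p under 0.05).

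**Figure D5:**
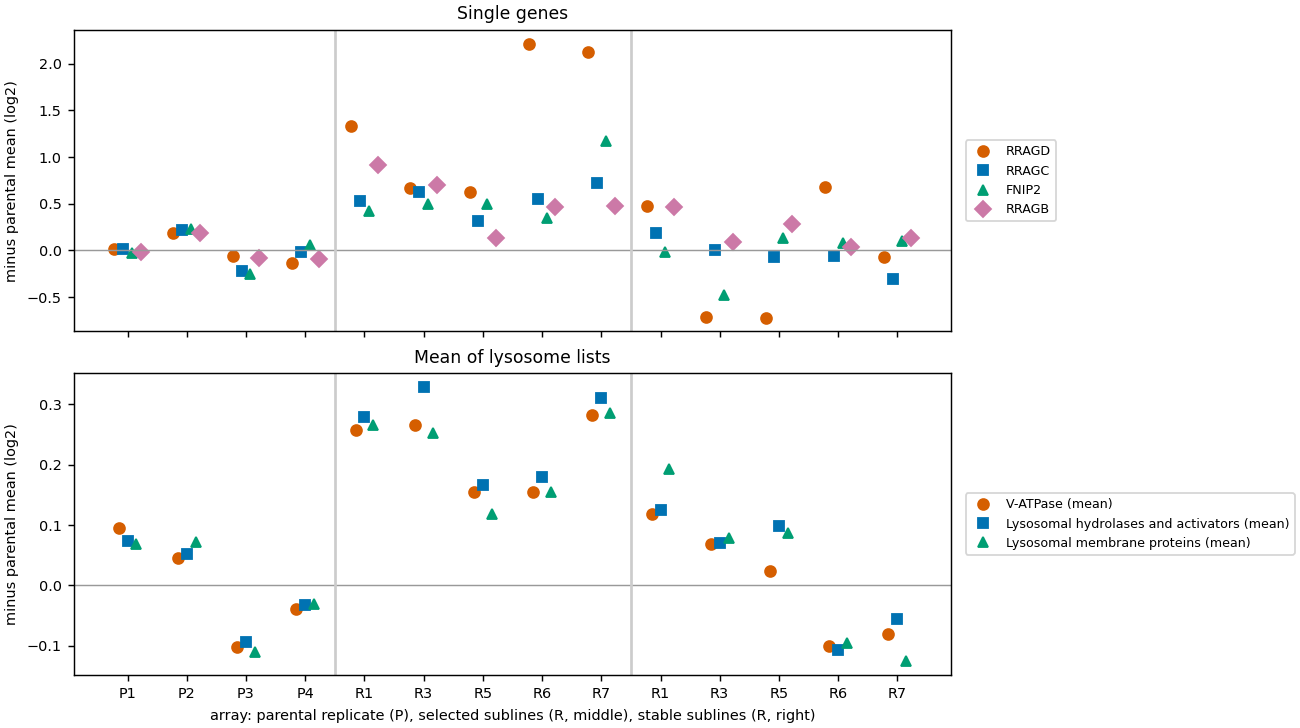
Signal relative to the parental mean (log2) on each of the 14 arrays, for RRAGD, RRAGC, FNIP2 and RRAGB (upper plot) and for the mean of 3 lysosome lists (lower plot). Selected R6 and R7 carry the highest RRAGD, above 2, while the lists are highest in selected R1, R3 and R7; the 2 plots have different vertical scales.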

How the data were processed

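RNA of 4 parental, 5 selected and 5 stable OVCAR-3 arrays was analysed from the deposited series table, whose log values were taken as log2 from their range (4.34 to 14.9), since no scale is stated. How the authors corrected background and normalized is not given in the sources used here; unknown steps may be part of a difference. Of 32295 rows, 19148 carried 1 gene, 1376 several and 11771 none here. For 19118 of the rows with 1 gene the gene ID was found in RefSeq (GRCh38.p14), and the symbol given there was used. For the 633 genes with several rows the row of highest mean was kept, which left 18398 genes.

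Arrays were grouped by their labels. Fits used limma 3.58.1 (lmFit, eBayes, two-sided) in R 4.3.3, without covariates, adjusted by Benjamini-Hochberg across the 18398 genes at a threshold of 0.05. Selected and stable arrays of a subline are paired by the labels; the deviations of its 2 arrays from their group means correlated at 0.636, 0.0497, 0.371, 0.546 and -0.468 in R1, R3, R5, R6 and R7. Subline as a block was an alternative, as were centring on the median, normalizing by quantiles, array weights, a trended and robust variance, dropping genes under the 40th percentile of mean signal, averaging a gene's rows, 1 fit of 14 arrays, a covariate for the olfactory receptor mean, and leaving out arrays. The fits were tested on simulated data, with 50 changed genes of each size. The number of arrays limits the precision.

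Named are the 10 genes, the 6 with the smallest mean absolute difference from RRAGD, and in each list up to 3 genes with the smallest p in each comparison, or called in all. Members and lists were chosen with earlier results of these data known. Promoter windows came from a RefSeq table. Figures used matplotlib 3.10.9.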

Additional observations from a re-analysis of the deposited data

Results flagged for a closer look

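Of 30 groups of 4 or 5 arrays examined (10 genes in 3 groups), 3 held an array whose gap to its nearest neighbour took up more of the group's range than Dixon's 95% value allows; chance does so in about 1 in 20 groups. FNIP2 in selected R7 was 9.30, above the other selected arrays at 8.47 to 8.63. FNIP2 in stable R3 was 7.66, below the other stable arrays at 8.11 to 8.26. TFE3 in parental replicate 3 was 7.90, below the other parental replicates at 8.37 to 8.42.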

How the results depend on the processing

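The difference of selected from stable cells kept its sign in each of 22 settings for RRAGB, RRAGC, RRAGD, FNIP2 and TFE3, and in each of 21 for TFEB and MITF, which the filter on dim genes removed. It turned to -0.023 for RRAGA with quantile normalization, and with subline as a block and the olfactory receptor covariate to -0.040 for FLCN and -0.020 for FNIP1. FNIP2 was called in 3 of 22 settings, with array weights (adjusted p = 0.0373), in 1 fit of 14 arrays (0.0377) and with the block (0.0337). The replicate block brought a call to FNIP2 among the 10 genes and to LAMTOR3, SESN3, CTSF, GLB1, ARSB, CLCN7 and LMBRD1 among the list genes. It ended no call among these. The 6 genes nearest RRAGD were picked from the values of these same arrays, so no call is given for them.

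All genes called in selected against stable cells numbered 397 (284 higher, 113 lower). There were 1480 with array weights, 680 in 1 fit of 14 arrays, 906 with subline as replicate block, 0 with both R7 arrays left out (1756 at an unadjusted p under 0.05, limma), 159 with R7 left out and the block, and 0 with the block and the olfactory receptor covariate (1309 at an unadjusted p under 0.05, limma). Leaving out 1 array gave 86 (selected R3) to 962 (stable R1). The split was 313 higher and 267 lower with quantile normalization and 177 and 115 with median centring. In selected against parental cells 1273 were called (926 higher, 347 lower), 2318 with the olfactory receptor covariate (1480 higher, 838 lower), and 517 (without parental replicate 4) to 1343 with 1 array left out; quantile normalization split them 989 higher and 721 lower. In stable against parental cells 1 was called, 286 with array weights, 5 with trended and robust variance, 2 with quantile normalization, 2 with median centring, 4 with the filter, 8 in 1 fit of 14 arrays and 75 with the covariate, and 1 to 26 with 1 array left out. The cause of these shifts was not tested.

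Differences of stable from parental cells changed sign in some settings for each of the 10 genes except RRAGB. RRAGB kept its sign in 17 of 17 (0.13 to 0.26), and RRAGD kept it in 15 of 17 (-0.26 to 0.093). With array weights they were -0.042 for RRAGA, 0.031 for FNIP2, 0.0035 for TFEB, -0.15 for TFE3 and 0.035 for MITF; RRAGC was 0.0086 with the covariate and FNIP2 0.0068 with quantile normalization. With 1 array left out RRAGA ran from -0.052 to 0.061, RRAGC from -0.12 to 0.023, FLCN from -0.039 to 0.054, FNIP1 from -0.16 to 0.0071, FNIP2 from -0.12 to 0.075, TFE3 from -0.11 to 0.063 and MITF from -0.064 to 0.028.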
